A study of Ciona robusta with 3 samples.

Results

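Foxtun4 CRISPR was compared with control CRISPR in the trunk ventral cells (TVCs), the multipotent cardiopharyngeal progenitors, of Ciona robusta embryos at 12 hours post-fertilization (hpf). The comparison rests on 132 TVCs, of which 32 carried the Foxtun4 CRISPR barcodes and 100 the control barcodes, among 624 cells with an assigned condition, 869 cells in both CRISPR libraries and 3438 cells in all 3 libraries of the series. Embryos were electroporated with Mesp>nls::Cas9, which places the nuclease in the B7.5 lineage, and with U6-driven guide RNAs against Foxtun4, Foxf or Gata4/5/6, or with control CRISPR/Cas9 reagents. The study's text names Tyrosinase as the control target in its imaging assays and names none for these libraries. All conditions, the control included, therefore carried Cas9 and a pair of barcoded Mesp>GFP reporters, which served both as sample labels and for sorting. Electroporation is mosaic, eggs came from several animals, the 4 conditions were pooled before droplet capture, and the cells were fixed in methanol. Cells of the lineage that become anterior tail muscle (ATM) were sorted together with the TVCs.

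To assign a condition, at least 1 unique molecular identifier (UMI) was required for each barcode of a pair, and 75% or more of a cell's mapped barcode UMIs had to belong to that pair. The link from pair to condition was read from a colour key, in which the Foxtun4 pair is named FoxG, and every value below rests on that reading. A cell was counted as a TVC when 4 muscle genes (3 Myl1 copies and Smyd1) held under 1% of its gene UMIs and 3 progenitor genes (Nk4/Nkx2-5, Hand-r and Enpp3-KY.Chr2.1038) together had at least 3 UMIs. Neither step used the level of Foxtun4. The levels of these 7 genes are given as a description only. UMIs were summed over the TVCs of each condition in each library, which gave 2 sums a side. The Foxtun4 CRISPR sums hold 6 and 26 cells with 91315 and 474808 gene UMIs, and the control sums 33 and 67 cells with 622877 and 1195537 gene UMIs, for repeats 1 and 2. Levels are UMIs per 1000000 gene UMIs of a sum (CPM). The labels give 2 libraries as repeats, while the study's text describes the 4 conditions as pooled into 1 library, and whether the repeats came from separate electroporations is not stated, so the p-values measure only the spread between these libraries, which may be technical.

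The CRISPR libraries shared 7 cell barcodes, and each copy in repeat 2 held 1.27 to 1.43% of the UMIs of its namesake in repeat 1. None of the 7 was in a Foxtun4 or control TVC sum, but 1 was a TVC of Foxf CRISPR repeat 1 with 42880 UMIs, 17.7% of that sum. The spread between the repeats of Foxf CRISPR, which enters the shared estimate, was 6.58 times that of counting alone, against 1.68 for Foxtun4 CRISPR and 2.22 for control.

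The TVCs are a small set of cells that descend from the B7.5 founder cells, migrate into the trunk and divide to give heart and pharyngeal muscle precursors. FGF-MAPK signalling and the regulators Mesp, Ets1/2, Foxf, Nk4/Nkx2-5, Gata4/5/6, Hand and Hand-r set up this fate. Forkhead proteins such as Foxf and Foxtun4 bind DNA through a winged-helix domain, and Foxf is known in Ciona for its part in TVC migration and in opening chromatin of the cardiac program.

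Foxtun4 (KY.Chr5.382) transcripts were lower in both Foxtun4 CRISPR sums than in both control sums. The Foxtun4 CRISPR sums held 10 UMIs (110 CPM) in repeat 1 and 35 UMIs (73.7 CPM) in repeat 2. The control sums held 201 UMIs (323 CPM) and 348 UMIs (291 CPM). The groups did not overlap, and the lower control value lay above the higher Foxtun4 CRISPR value. The log2 fold change was -1.86 (SE 0.27, 95% interval -2.45 to -1.26), and Foxtun4 had the smallest p of the 6744 genes tested, at 2.06e-05. Adjusted over all genes it was 0.139 in edgeR's quasi-likelihood test, which does not pass the threshold of 0.05. With the same sums the DESeq2 Wald test gave -1.85 with an adjusted p of 0.0108. The UMIs mark 3′ transcript ends and do not read the sites that the guides cut, so this level does not measure how many cells carried a mutation.

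The other CRISPR conditions give levels of Foxtun4 that do not depend on the control sums. Gata4/5/6 CRISPR TVCs (11 and 34 cells) held 353 and 299 CPM of Foxtun4, overlapping the control. Foxf CRISPR TVCs (15 and 43 cells) held 124 and 191 CPM, between the Foxtun4 CRISPR and the control values. Ordered by level, control and Gata4/5/6 CRISPR overlapped, Foxf CRISPR came next and Foxtun4 CRISPR was lowest. Against Gata4/5/6 CRISPR, Foxtun4 fell in Foxtun4 CRISPR by a log2 fold change of -1.95 (SE 0.28, 95% interval -2.56 to -1.34, adjusted p 0.0418 in edgeR), the only gene called lower of 6744 (0.0148%). With the library as a block the call was lost (-1.93, adjusted p 0.0734), as it was on leaving out either repeat of Foxtun4 CRISPR or of control (adjusted p 0.110 to 0.557), and it held in 9 of 17 alternatives. Against Foxf CRISPR the log2 fold change was -1.004 (SE 0.28, 95% interval -1.62 to -0.39, adjusted p 0.142), which did not pass. The other targets were also below both control values under their own guides: Foxf had 74.3 and 157 CPM in Foxf CRISPR, and Gata4/5/6 had 113 and 67.8 CPM in Gata4/5/6 CRISPR. Gata4/5/6 was lowest in Foxf CRISPR, at 49.6 and 58.3 CPM.

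The call on Foxtun4 changed between settings, with cells that stood apart left out and also with all cells kept. The cause was not tested. Without the shared barcodes, a setting chosen after the data were seen, 2 genes were called lower (0.0297%; Foxtun4 and Dkk4) and 2 higher (0.0297%; KY.Chr7.1017 and Matn4) against control. In that setting the log2 fold change of Foxtun4 was -1.87 with an adjusted p of 0.00498, and against Foxf CRISPR it was -1.14 with an adjusted p of 0.0223. Without the 4 TVCs over 30000 UMIs (1 Foxtun4 CRISPR, 2 Foxf CRISPR and 1 Gata4/5/6 CRISPR), also chosen after the data were seen, the same 2 genes were called lower (0.0308%) and 0 higher, and Foxtun4 was at -1.89 with an adjusted p of 0.00123. Foxtun4 was below 0 in 18 of 18 alternative settings that changed the sums or the fit, and past the threshold in 7 of them. In the plot of settings the estimates lie between -2.02 and -1.51, and the intervals stay below 0.

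**Figure D1:**
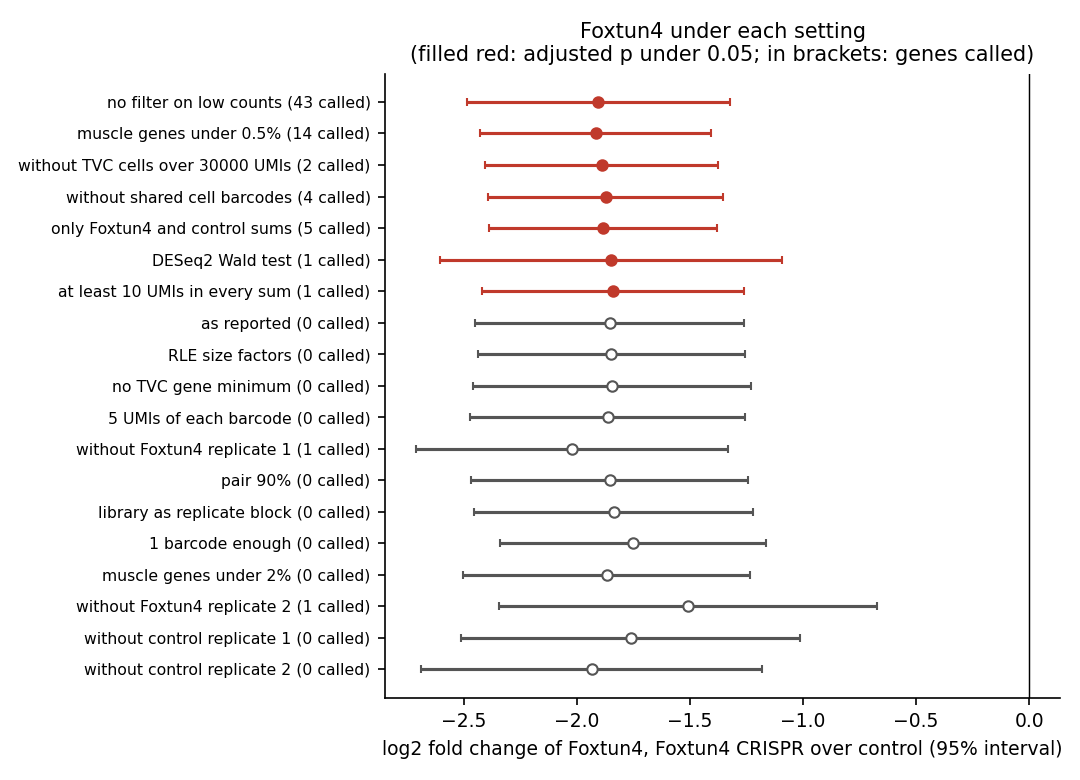
Log2 fold change of Foxtun4 in Foxtun4 CRISPR over control TVCs (x axis, log2 scale) under the reported setting and 18 alternatives (y axis, ordered by adjusted p), with 95% intervals and, in brackets, the number of genes called. Estimates run from -2.02 to -1.51. Filled red points have an adjusted p under 0.05. The setting labelled with at least 10 UMIs in every sum needed them in both Foxtun4 CRISPR sums or in both control sums.

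The lower level was also seen per cell. In Foxtun4 CRISPR, 16 of 32 TVCs (50%, exact Clopper-Pearson 95% interval 31.9 to 68.1%) had a Foxtun4 UMI, 3 of 6 in repeat 1 and 13 of 26 in repeat 2. In control, 93 of 100 TVCs (93%, 86.1 to 97.1%) had one, 31 of 33 and 62 of 67. Median depths were 17046 UMIs per Foxtun4 CRISPR TVC and 18353 per control TVC. Thinned to 5000 UMIs per cell, 6 of 32 Foxtun4 CRISPR TVCs (18.8%, 7.21 to 36.4%) and 70 of 99 control TVCs (70.7%, 60.7 to 79.4%) had a Foxtun4 UMI, with 1 shallower control cell left out. The per-cell shares of the 2 conditions did not overlap between repeats. The shares were not tested, since with 2 libraries a side a two-sided exact permutation test cannot go below p = 0.333. These intervals cover counting error only.

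The Foxtun4 CRISPR cells were not uniform in Foxtun4. Of the 32 cells, 16 had 0 UMIs, 10 had 1 or 2, and 6 had 3 or more, up to 7. In control, 7 of 100 had 0 UMIs, 10 had 1 or 2 and 83 had 3 or more, up to 17. The median Foxtun4 CRISPR cell had 0.220 Foxtun4 UMIs per 10000 gene UMIs and the median control cell 2.95, a level that 3 Foxtun4 CRISPR cells reached. The plot of single cells shows the Foxtun4 CRISPR cells gathered at 0, with a few among the control cells. The 16 cells at 0 had a median depth of 16838 UMIs and a median of 120 barcode-pair UMIs, and the 16 cells with a UMI had 17793 and 225.5. Barcode-pair UMIs, which come from the co-electroporated reporters, had a median of 170.5 in Foxtun4 CRISPR TVCs and 364 in control TVCs, and their part in the result was not tested. A lower level in every cell and a loss in some of the cells cannot be told apart from counts this low.

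**Figure D2:**
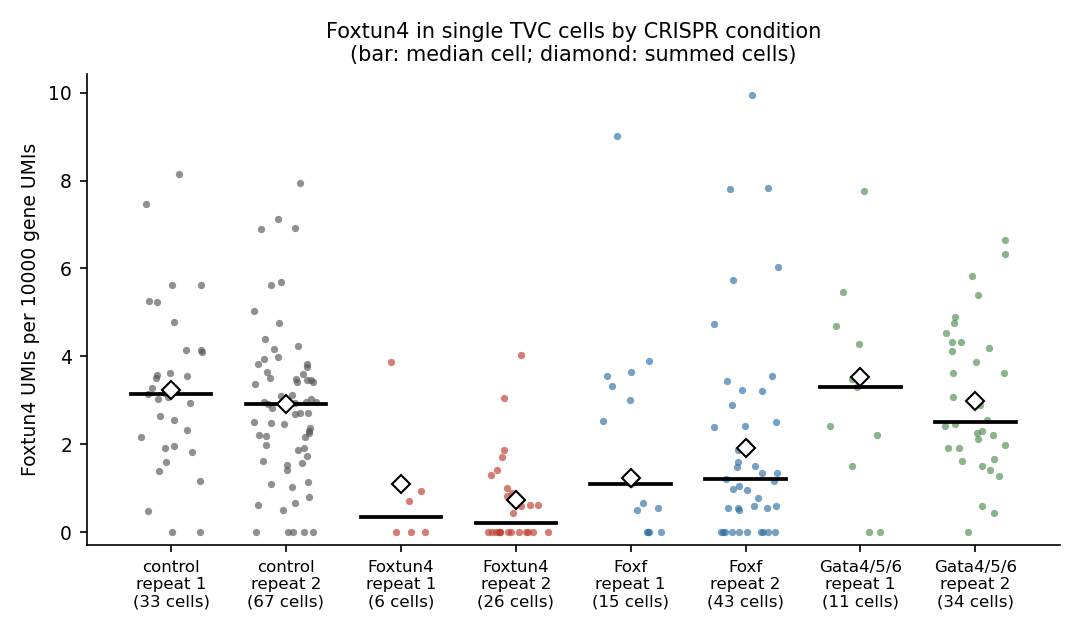
Foxtun4 UMIs per 10000 gene UMIs (y axis) in each TVC, by CRISPR condition and repeat (x axis), with the median cell as a bar and the summed cells as a diamond. The median is 0.357 and 0.220 in the Foxtun4 CRISPR repeats and 3.134 and 2.91 in the control repeats.

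ATM cells served as a background for free RNA. In ATM cells, which lack the TVC program, 2 of 36 Foxtun4 CRISPR cells (5.56%, 0.680 to 18.7%) and 5 of 80 control cells (6.25%, 2.06 to 14.0%) had a Foxtun4 UMI, at median depths of 30334 and 33400 UMIs. Thinned to 5000 UMIs, 0 of 36 Foxtun4 CRISPR ATM cells had one, which allows a share of up to 8.33% at a limit of 3 counts and 9.74% by Clopper-Pearson. Unthinned, the share of Foxtun4 CRISPR TVCs with a Foxtun4 UMI (31.9 to 68.1%) was above this background. Thinned to 5000 UMIs, the intervals overlapped (7.21 to 36.4% in TVCs, up to 9.74% in ATM cells). The ATM sums held 1 and 1 Foxtun4 UMIs in Foxtun4 CRISPR and 5 and 8 in control, too few to pass the filter on low counts, so Foxtun4 was not tested there. Of the 5677 genes tested in ATM cells, 7 (0.123%) were called between Foxtun4 CRISPR and control.

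The labelled cell type was present in all 4 sums. All 9 TVC markers, which include Foxtun4, were detected in each, at 3751 and 4840 CPM summed in Foxtun4 CRISPR and 4412 and 4709 CPM in control, against 102 to 138 CPM in ATM cells. The 7 ATM markers (Myod/Myf5, Meox2, troponins and Acta1) summed to 2212 and 4737 CPM in the Foxtun4 CRISPR TVC sums and 4447 and 3557 CPM in the control TVC sums. In ATM cells they summed to 24952 to 28420 CPM. Acta1 did not mark ATM cells here. It had 2 and 1 UMIs in control ATM cells and 0 and 0 in Foxtun4 CRISPR ATM cells, against 3 and 4, and 0 and 3, in TVCs. Myod/Myf5, which defines tail muscle, had 1 and 1 UMIs in Foxtun4 CRISPR TVCs and 0 and 3 in control TVCs. Of 6 markers of notochord, epidermis, nervous system and mesenchyme, 3 and 4 were detected in Foxtun4 CRISPR and 5 and 5 in control, at 747 to 891 CPM summed. Most of this was the notochord marker Tln2-KY.Chr3.779 at 627 to 679 CPM. The study also lists Tln2 among the genes that rise last in TVCs, and it had 32.0 to 41.1 CPM in ATM cells. The summed level is therefore not a measure of other cell types alone. The mesenchyme marker Twist1 had 0 UMIs in both Foxtun4 CRISPR sums and 25 and 9 in the control sums. TVCs were 30% (6 of 20) and 30.6% (26 of 85) of Foxtun4 CRISPR cells and 45.2% (33 of 73) and 39.6% (67 of 169) of control cells. The pooled shares were 30.5% (Clopper-Pearson 21.9 to 40.2%) and 41.3% (35.1 to 47.8%), with overlapping intervals, and the sort and the TVC rule both set them. A TVC in the Foxtun4 CRISPR group held a median of 199 UMIs of the 3 progenitor genes, a control TVC 200. Just inside the muscle threshold, at 0.5 to 1%, lay 1 Foxtun4 CRISPR and 5 control cells, and just outside it, at 1 to 2%, 3 and 5.

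Foxtun4 CRISPR gave no call against control, its target included. Calls needed both an absolute log2 fold change above 0.5 and an edgeR adjusted p below 0.05, and 0 of the 6744 genes tested against control met this (0%). DESeq2 called 1, Foxtun4 itself (0.0148%). At an unadjusted p under 0.05, 96 genes (1.42%) were lower and 80 (1.19%) higher. Both Foxtun4 CRISPR sums lay below both control sums for 1367 genes (20.3%) and above both for 1007 (14.9%). The median log2 fold change of all genes was -0.0031. The precision of these values depended on the level of the gene: the 95% interval lay within 1 log2 unit of 0 for 3070 genes (45.5%), and for 1879 of the 2090 genes (89.9%) with at least 100 CPM in control. For 1642 genes at 10 to 30 CPM the median SE was 0.63, and only 9 had such an interval, although 33 of them had an unadjusted p under 0.05. The plot of all genes shows this widening toward low levels.

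**Figure D3:**
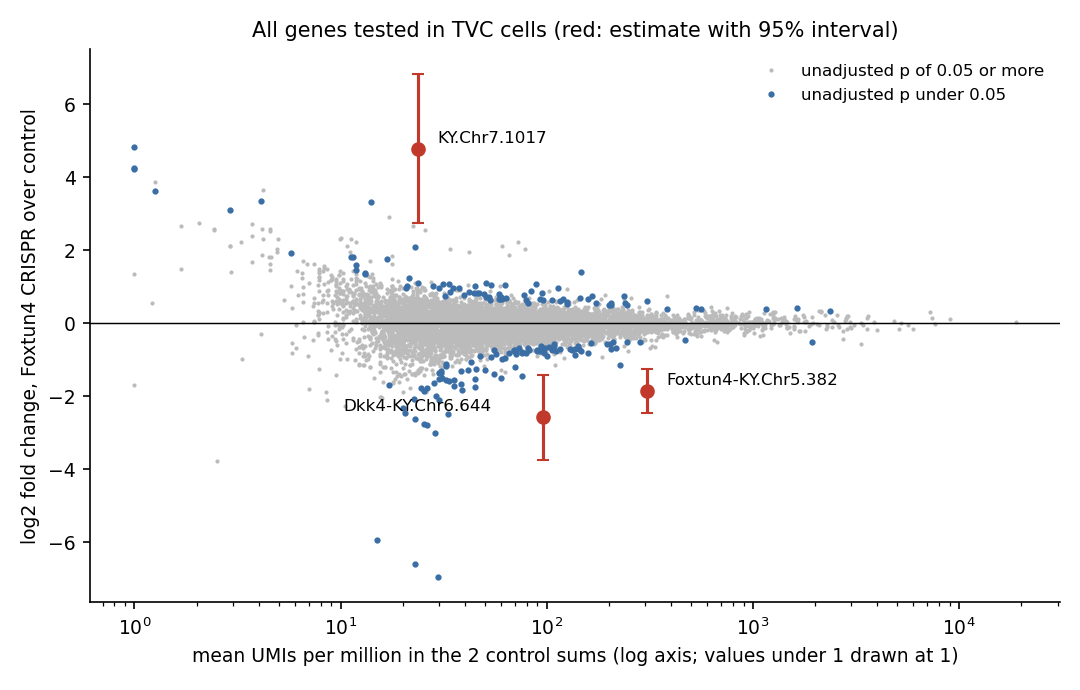
Log2 fold change of Foxtun4 CRISPR over control TVCs (y axis) against the mean level of the control sums in CPM (x axis, log scale) for the 6744 genes tested, with genes of unadjusted p under 0.05 in blue and 3 named genes in red with 95% intervals. Foxtun4 stands at -1.86, Dkk4 at -2.58 and KY.Chr7.1017 at 4.78.

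Dkk4-KY.Chr6.644, a match to the secreted Wnt inhibitors of the Dickkopf family, was the lower gene with the smallest p after Foxtun4. It had 1 UMI (10.95 CPM) and 8 UMIs (16.8 CPM) in Foxtun4 CRISPR and 52 UMIs (83.5 CPM) and 129 UMIs (108 CPM) in control. The log2 fold change was -2.58 (SE 0.53, 95% interval -3.75 to -1.41), with an unadjusted p of 4.42e-04 and an adjusted p of 0.994 in edgeR, so it was not called. A Dkk4 UMI was found in 5 of 32 Foxtun4 CRISPR TVCs (1 of 6 and 4 of 26 by repeat) and in 29 of 100 control TVCs (14 of 33 and 15 of 67). In control, 1 cell held 24 of the 52 UMIs of repeat 1, and 1 cell held 35 of the 129 UMIs of repeat 2. Without the shared barcodes the adjusted p was 0.0133, and without TVCs over 30000 UMIs 0.0142, with log2 fold changes of -2.57 and -2.48. Gata4/5/6 CRISPR had Dkk4 at 14.7 and 19.9 CPM, and Foxf CRISPR had it at 244 and 111 CPM. By repeat, 6 of 15 and 14 of 43 Foxf CRISPR TVCs had a Dkk4 UMI. Of these UMIs, 1 cell held 32 of the 59 of repeat 1, and 1 cell held 35 of the 82 of repeat 2. In direct contrasts, Dkk4 was lower in Foxtun4 CRISPR than in Foxf CRISPR by a log2 fold change of -3.45 (SE 0.53, adjusted p 0.00696), and it was not distinguished from Gata4/5/6 CRISPR (-0.21, 95% interval -1.75 to 1.33, adjusted p 1.0).

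The other genes with the largest changes were mostly weakly expressed. They were the 10 lower and 10 higher genes with the largest log2 fold change among those with an unadjusted p under 0.05 and no overlap, and their adjusted p was 0.994 to 1.0. Of the 10 lower genes 3 had 0 UMIs in both Foxtun4 CRISPR sums. Erg-KY.Chr4.259, a match to an Ets-family factor of endothelium in vertebrates, had 16 and 40 UMIs in control, but 34 of these were in 1 cell. It was at least 5.81-fold lower in Foxtun4 CRISPR, taking 3 UMIs in the summed group as the floor. Erg was near 0 in the other mutants too, with 1 and 0 UMIs in Foxf CRISPR and 0 and 1 in Gata4/5/6 CRISPR. Sox2-KY.Chr1.559, a match to a factor of neural and stem cells in vertebrates, had 14 and 28 UMIs in control, in 15 cells, and was at least 4.36-fold lower. Sstr5-KY.Chr7.792, a match to a somatostatin receptor, had 12 and 13 and was at least 2.59-fold lower. In Foxf CRISPR, Sox2 had 3 and 24 UMIs and Sstr5 3 and 18. In Gata4/5/6 CRISPR, Sox2 had 3 and 12 and Sstr5 0 and 2. Katnal2-KY.Chr5.842, a match to a microtubule-severing protein, had 2 UMIs in Foxtun4 CRISPR against 46 in control, found in 33 control cells, a ratio of 0.140 with a counting interval of 0.0164 to 0.534. Vamp4-KY.Chr8.346, a match to a vesicle fusion protein, had 3 UMIs against 53 in control, a ratio of 0.182 (0.0363 to 0.561). The remaining lower genes were KY.Chr10.1124, KY.Chr9.1104, KY.Chr7.689 and Ptpdc1-KY.Chr8.286, with 2 UMIs each in Foxtun4 CRISPR. In control they had 61, 44, 42 and 41 UMIs, in 15, 5, 16 and 31 cells. For KY.Chr10.1124, 33 of the 61 were in 1 cell, and for KY.Chr9.1104, 19 of the 44. KY.Chr9.1104 had 4 and 10 UMIs in Foxf CRISPR and 0 and 1 in Gata4/5/6 CRISPR.

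Among the 10 higher genes, H3c2-KY.UAContig44.13, a match to a replication-dependent histone H3, had the most UMIs. Its level was 679 and 192 CPM in Foxtun4 CRISPR and 151 and 143 CPM in control (log2 fold change 1.40, SE 0.54, adjusted p 1.0). Histone genes have near-identical copies, among which reads may be split, so this value is uncertain. KY.Chr12.788 was at 153 and 90.6 CPM against 46.6 and 54.4 CPM, and Cog7-KY.Chr1.1414, a match to a Golgi trafficking subunit, at 65.7 and 44.2 CPM against 24.1 and 23.4 CPM. Mrc1-KY.Chr9.898, Abcb11-KY.Chr3.118, Abhd17c-KY.Chr2.1082, Csad-KY.Chr3.209, Ccdc173-KY.Chr9.238, KY.Chr1.1306 and KY.Chr1.1446 had log2 fold changes from 1.23 to 3.1 and at most 54.8 CPM in any of the 4 sums.

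Some large differences rested largely on 1 cell. The deepest Foxtun4 CRISPR TVC, in repeat 2, had 36197 UMIs, and the next deepest 22932. It held 489 of the 560 UMIs of KY.Chr7.1017 in Foxtun4 CRISPR TVCs, 97 of 102 of Matn4-KY.Chr14.958, a match to a matrilin of the extracellular matrix, and 103 of 105 of Col6a3-KY.Chr13.461, a match to a type VI collagen chain. KY.Chr7.1017 had 10.95 and 1177 CPM in Foxtun4 CRISPR and 19.3 and 28.4 CPM in control, and was the gene with the second smallest p (log2 fold change 4.78, adjusted p 0.902). Without TVCs over 30000 UMIs its log2 fold change was 2.31, with an adjusted p of 0.0854. That setting kept 1 further cell that held 62 of the 560 UMIs. The same cell had 3 of the 45 Foxtun4 UMIs and 0 of the 9 Dkk4 UMIs.

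No cardiopharyngeal regulator was past the threshold in Foxtun4 CRISPR. Of 8 in the list 7 could be tested, and 0 had an unadjusted p under 0.05 in either direction. Without Nk4/Nkx2-5 and Hand-r, which the TVC rule used, 5 remained, all with a log2 fold change above 0 and with a median of 0.30 against -0.0031 for all genes. Foxf-KY.Chr3.1005, the forkhead regulator of TVC migration, had 734 and 554 CPM in Foxtun4 CRISPR and 572 and 460 CPM in control (log2 fold change 0.30, 95% interval -0.25 to 0.85). Gata4/5/6-KY.Chr6.625, a zinc-finger regulator of heart fate, had 350 and 274 CPM against 226 and 240 CPM (0.39, -0.14 to 0.92). The Foxtun4 CRISPR values lay above both control values for 3 of these 5 (Gata4/5/6, Hand and Ets1/2), against 14.9% of all genes, and overlapped for Foxf and Tbx2/3.

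Hand-KY.Chr14.359, a basic helix-loop-helix factor of the heart, had 186 and 96.9 CPM against 94.7 and 95.4 CPM (0.39, 95% interval -0.31 to 1.10). Ets1/2-KY.Chr10.606, the transcriptional effector of FGF-MAPK signalling in the lineage, had 1062 and 969 CPM against 917 and 934 CPM (0.14, -0.21 to 0.49). The 95% intervals of 4 of these 5 lay within 1 log2 unit of 0 (that of Hand did not). Tbx2/3-KY.Chr4.1104, a T-box factor, had 76.7 and 310 CPM against 217 and 195 CPM (0.16, -0.66 to 0.98), and its repeats differed more than the conditions. Without Foxtun4 CRISPR repeat 2 it was at -1.44. Nk4/Nkx2-5 and Hand-r, which helped to choose the cells, had 953 and 781 CPM and 3450 and 2489 CPM in Foxtun4 CRISPR, against 745 and 728 CPM and 2593 and 2503 CPM in control. Mesp-KY.Chr3.993, the determinant of the lineage, was near 0, with 1 and 1 UMIs in Foxtun4 CRISPR and 9 and 5 in control, a ratio of 0.459 with a counting interval of 0.0506 to 2.0.

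Foxtun4 was the only forkhead gene with an unadjusted p under 0.05 among the 13 tested. The median log2 fold change of the family was -0.14. Foxh.a-KY.Chr9.672, the forkhead gene with the highest level, had 997 and 693 CPM in Foxtun4 CRISPR and 991 and 841 CPM in control (-0.14, 95% interval -0.59 to 0.30). Foxn2/3-KY.Chr3.371 had 285 and 337 CPM against 353 and 355 CPM (-0.14, -0.55 to 0.26), and Foxk-KY.Chr12.74 had 120 and 196 CPM against 193 and 212 CPM (-0.23, -0.76 to 0.30). For these abundant members a change of 1 log2 unit lay outside the interval. Foxtun1-KY.Chr14.637 had 10.95 and 35.8 CPM against 51.4 and 41.8 CPM (-0.58, -1.49 to 0.33), and Foxtun2-KY.Chr14.1201 had 32.9 and 10.5 CPM against 9.63 and 16.7 CPM (0.22, -1.49 to 1.93). Foxp/Znf255-KY.Chr7.474 had 0 and 9 UMIs against 20 and 33 (-0.96, -2.24 to 0.33). The others, Foxn1/4.b-KY.Chr6.670, Foxm-KY.Chr4.979, Foxo-KY.Chr6.627, Foxj2/3-KY.Chr1.1301 and Foxh.b-KY.Chr14.65, ran from -0.39 to 0.48. The plot of regulators and forkhead genes sets the 4 sums side by side for each gene.

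**Figure D4:**
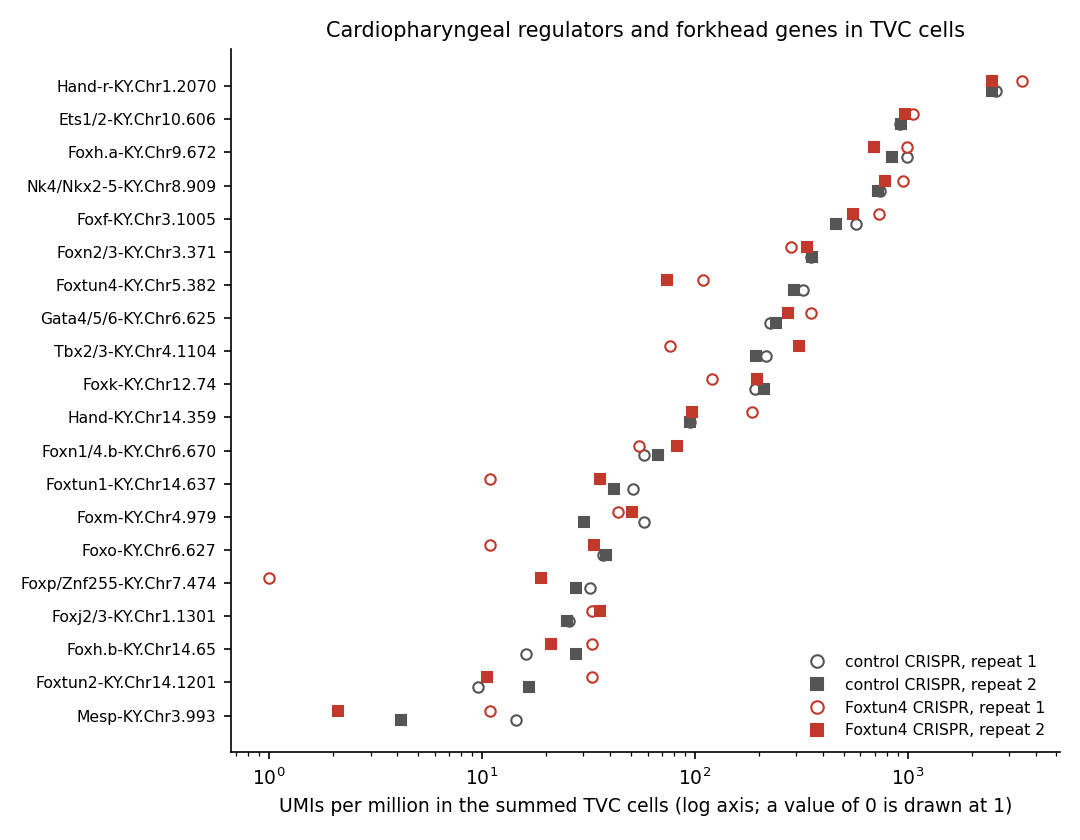
Levels in CPM (x axis, log scale, 0 drawn at 1) of the cardiopharyngeal regulators and forkhead genes (y axis, ordered by control level) in the 2 Foxtun4 CRISPR (red) and 2 control (grey) sums of TVCs. Foxtun4 lies at 110 and 73.7 in Foxtun4 CRISPR and at 323 and 291 in control, with no overlap.

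Genes that change as TVCs mature were described next. The study drew these lists from its time series, not from these libraries, and the genes of the TVC rule are left out of the counts. The mature-state list is the cluster of genes that rise last in TVCs (a further late cluster was not used here as a list), and the other is a cluster that is high in the early states, is switched off in TVCs and stays on in tail muscle. Of 778 tested mature-state genes, 13 were lower and 9 higher at an unadjusted p under 0.05, their median log2 fold change was 0.02, and their summed level was 225242 and 216243 CPM in Foxtun4 CRISPR and 210985 and 223753 CPM in control. Of 550 tested early-state and tail muscle genes, 8 were lower and 6 higher, with a median of -0.00095 and summed levels of 142540 and 152253 CPM against 161904 and 137532 CPM. Both summed levels overlapped between the conditions. Of all genes tested, 1.42% were lower and 1.19% higher by the same measure.

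Of 37 candidate genes that the study selected for its mutagenesis screen, 32 were tested, 3 had an unadjusted p under 0.05 and all 3 were lower. They were Dkk4, Crim1-KY.Chr3.875 and Fzd5-KY.Chr9.725. Of all genes tested, 1.42% were lower and 1.19% higher by the same measure. The median of the 32 was -0.0032, with 16 below 0 and 16 above. Crim1, a match to a transmembrane protein that binds BMP ligands in vertebrates, had 0 and 4 UMIs in Foxtun4 CRISPR and 15 and 43 in control (log2 fold change -2.10, SE 0.65, adjusted p 1.0). Fzd5, a match to a Frizzled receptor for Wnt ligands, had 32.9 and 61.1 CPM against 89.9 and 95.4 CPM (-0.75, SE 0.33, adjusted p 1.0). Another Frizzled match of the list, Fzd4-KY.Chr6.487, had 307 and 411 CPM in Foxtun4 CRISPR against 361 and 438 CPM (-0.10, 95% interval -0.56 to 0.37), and Bmp2-KY.Chr4.449, a match to a BMP ligand, had 274 and 255 CPM against 186 and 231 CPM (0.34, -0.19 to 0.86). Depdc1b-KY.Chr2.2230, also of the list, had 701 and 765 CPM against 597 and 775 CPM (0.11, -0.27 to 0.50). Fzd4, Bmp2 and Depdc1b were named after their values were seen.

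Other genes of the mature list with an unadjusted p under 0.05 did different things. Among the lower ones were Spire1-KY.Chr3.767, a match to an actin nucleator (log2 fold change -0.50), Prkd2-KY.Chr4.1182, a match to a protein kinase (-0.75), Cers1-KY.Chr4.560, a match to a ceramide synthase (-0.67), Pclaf-KY.Chr5.829, a match to a PCNA-binding factor of DNA replication (-0.63), and Lin37-KY.Chr8.628, a match to a subunit of a complex that represses cell cycle genes (-0.64). Astl-KY.Chr9.1085, Rp1-KY.Chr7.938, Faah-KY.Chr9.375, KY.Chr13.231 and KY.Chr7.689 ran from -2.63 to -0.72. The higher ones were Lama3-KY.Chr2.933, a match to a laminin chain (0.35, at 3439 and 2576 CPM against 2379 and 2335 CPM), the ribosomal and mitochondrial ribosomal matches Rps21-KY.Chr10.1236, Mrps14-KY.Chr12.1084 and Mrpl44-KY.Chr2.180 (0.38 to 0.78), Adk-KY.Chr6.483, Mcrs1-KY.Chr6.490, Suv39h2-KY.Chr4.1219, Rhag-KY.Chr12.917 and Csad (0.52 to 1.36).

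Of the early-state and tail muscle genes, Cdh18-KY.Chr12.558, a match to a cadherin, had 416 and 381 CPM in Foxtun4 CRISPR and 226 and 248 CPM in control (0.75, SE 0.21, adjusted p 1.0). Chordc1-KY.Chr12.897, a match to a chaperone partner, was at 0.84, Ldb3-KY.Chr2.492, a match to a Z-disc protein of muscle, at 0.69, Ndrg1-KY.Chr11.351 at 0.39, KY.Chr12.228 at 0.67 and KY.Chr13.46 at 0.72. Atp2a3-KY.Chr11.572, a match to a calcium pump of the sarcoplasmic reticulum, had 1205 and 1460 CPM against 2270 and 1603 CPM (-0.51, SE 0.21). Lrp6-KY.Chr4.46, a match to a Wnt co-receptor, was at -0.70, Slc39a13-KY.Chr8.327, a match to a zinc transporter, at -0.90, Lmo7-KY.Chr9.664 at -0.52 and Zswim8-KY.Chr1.1421 at -0.45.

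The smaller lists gave few genes past an unadjusted p of 0.05, a measure by which 1.42% of all genes were lower and 1.19% higher. Of 20 cell cycle genes 1 was higher, Mcm3-KY.Chr14.1189, a subunit of the replicative helicase, at 339 and 259 CPM in Foxtun4 CRISPR and 188 and 222 CPM in control (0.50, SE 0.21), and the median was 0.05. Of 8 FGF-MAPK genes 1 was higher, Elk1-KY.Chr8.613, a match to an Ets factor that responds to MAPK, at 854 and 588 CPM against 536 and 517 CPM (0.42, SE 0.19), and the median was 0.19. Of 8 stress genes 1 was lower, Hspa5-KY.Chr9.923, the chaperone of the endoplasmic reticulum, at 65.7 and 77.9 CPM against 133 and 142 CPM (-0.86, SE 0.27), and the median was -0.07. Of 11 tail muscle genes outside the TVC rule 0 had an unadjusted p under 0.05, and the median was -0.21. Of 138 transcription factors outside that rule 2 were lower, Foxtun4 and Otx1-KY.Chr4.867 (-0.68), and 3 higher, Elk1, Rbpj-KY.Chr2.749, the DNA-binding partner of Notch (1.06), and Atoh8-KY.Chr9.174, a basic helix-loop-helix factor (0.74). Of the 3 tested markers of other cell types 0 had an unadjusted p under 0.05. No member of any list was called.

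**Figure D5:**
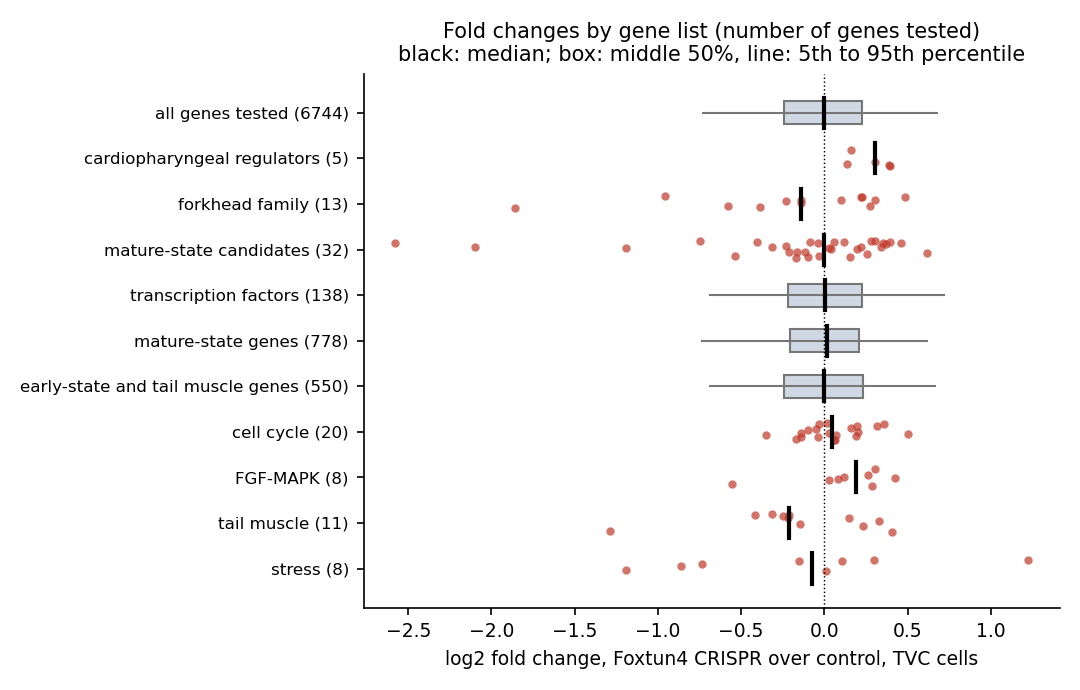
Log2 fold changes of Foxtun4 CRISPR over control TVCs (x axis) for all genes and for each gene list (y axis, number tested in brackets), as single genes for lists of up to 32 genes and as boxes for larger ones, with black medians. The 7 genes of the TVC rule are left out of the lists, the medians run from -0.21 for tail muscle to 0.30 for the regulators, and the box of all genes is centred at -0.0031.

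Foxtun4 CRISPR was also set directly against the other mutants, in contrasts that do not use the control levels, although the control sums entered the shared estimate of the spread. Against Foxf CRISPR, 31 genes were called lower (0.46%) and 76 higher (1.13%) in Foxtun4 CRISPR. Of the 5 regulators outside the TVC rule, 3 were called higher in Foxtun4 CRISPR, namely Foxf (log2 fold change 2.30), Gata4/5/6 (2.40) and Hand (1.70). Without the genes of that rule, 42 of the 778 mature-state genes were called higher and 2 lower, and of the 550 early-state and tail muscle genes 5 were called higher and 12 lower. The screen candidates called higher were Fzd4, Asb2-KY.Chr7.1211, Bmp2, Smurf1-KY.Chr4.280 and Hand, and Dkk4 was called lower. Asb2, a match to a ubiquitin ligase subunit, had 2530 and 1778 CPM in Foxtun4 CRISPR, 2159 and 2395 CPM in control and 483 and 703 CPM in Foxf CRISPR. Dusp1-KY.Chr1.1703, a match to a MAPK phosphatase, was called lower, at 110 and 71.6 CPM in Foxtun4 CRISPR, 109 and 134 CPM in control and 388 and 403 CPM in Foxf CRISPR.

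Against Gata4/5/6 CRISPR, 4 genes were called higher (0.0593%) in Foxtun4 CRISPR. Depdc1b had 240 and 268 CPM in Gata4/5/6 CRISPR (log2 fold change 1.52, adjusted p 0.0280), and Gata4/5/6 itself was 1.83 higher in Foxtun4 CRISPR (adjusted p 0.0418). Vax1-KY.Chr5.1093, a match to a homeobox factor, had 43.8 and 86.4 CPM in Foxtun4 CRISPR, 43.3 and 47.7 CPM in control and 0 and 3.31 CPM in Gata4/5/6 CRISPR. KY.Chr5.531 had 65.7 and 286 CPM in Foxtun4 CRISPR, 241 and 407 CPM in control and 14.7 and 14.9 CPM in Gata4/5/6 CRISPR. Vax1 and KY.Chr5.531 were named after their values were seen.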

How the data were processed

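The deposited values are raw UMI counts for each gene in each cell. Per the labels they come from Cell Ranger 3.0.1, and the features are KY2019 genes plus 21 sample barcodes that the authors added to the reference. Both CRISPR libraries were used (231 cells with 5382449 UMIs and 638 cells with 15156285 UMIs), and the time series only for its number of cells. Cell barcodes were used as deposited. Cells with mixed barcode pairs were left out, and no other doublet filter was applied.

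The 8 TVC sums of all 4 conditions (5 or more cells each) entered 1 quasi-likelihood fit (edgeR 4.0.16 in R 4.3.3, with TMM, filterByExpr and condition as the only term), adjusted by Benjamini-Hochberg over 6744 genes. SE is the log2 fold change over the square root of F. DESeq2 1.42.0 was an alternative. The scripts were tested on simulated data.

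The repeat number pairs sums, since equal numbers mark 1 pooled library. Their deviations from the condition means correlated at -0.22 to 0.10 across genes. A fit with the library as a block is among the alternatives.

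Members, gene lists and tests were chosen with earlier results of these data known. Named genes are the target, the regulators, the forkhead genes, the 10 lower and 10 higher genes described in the text, list members with an unadjusted p under 0.05, and genes called in some settings. Gene names are best matches of the study's tables, printed with identifiers. Comparisons deposited by the authors were not used. A few genes that this rule names are not reported here.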

Additional observations from a re-analysis of the deposited data

Results flagged for a closer look

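Sample barcodes that no condition key lists were found above the limit that a count of 0 allows (3 UMIs) in both CRISPR libraries. SBC018 had 77 UMIs in repeat 1 and 136 in repeat 2, spread over 55 and 108 cells with at most 4 in any cell. SBC019 had 35 and 87 UMIs, SBC004 had 8 and 21, and SBC017 had 5 in repeat 2. These barcodes were used for no assignment of Foxtun4 CRISPR or control cells.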

How the results depend on the processing

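Of the 81 other named genes, 1393 of 1431 alternative values kept their direction and their side of the threshold, 22 passed it newly and 16 turned their direction. Against 0 genes called, 1 was called by DESeq2. With at least 10 UMIs in both Foxtun4 CRISPR sums or in both control sums, 1 was called. With muscle genes under 0.5%, 14 were called, with no filter on low counts 43, and with the Foxtun4 and control sums alone 5. Calls numbered 2 without TVCs over 30000 UMIs and 4 without shared barcodes (Foxtun4, Dkk4, KY.Chr7.1017 and Matn4). The cause was not tested. Leaving out cells over the 95th percentile of UMIs removed no TVC and is not counted.

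Foxtun4 against control passed the threshold in these 7 settings, at -1.85 (DESeq2), -1.84 (10 UMIs), -1.92 (0.5% muscle), -1.91 (no filter), -1.88 (these sums alone), -1.89 (no TVC over 30000 UMIs) and -1.87 (no shared barcodes), and leaving out a replicate gave -2.02 to -1.51, with adjusted p over all alternatives from 1.11e-07 to 1.0. With the library as a block it was -1.84 (adjusted p 0.382) with 0 genes called. Against Foxf CRISPR it passed at -1.37 (0.5% muscle), -1.01 (no filter), -1.16 and -1.14 (without TVCs over 30000 UMIs and without shared barcodes); leaving out a replicate gave -1.17 to -0.67. Against Gata4/5/6 CRISPR it no longer passed at -1.72 (1 barcode enough), -1.93 (library as a replicate block, adjusted p 0.0734), -1.86 (muscle under 2%), -1.76 (no TVC gene minimum) and -2.12 to -1.60 on leaving out a replicate. The fit of these sums alone gives no value for the other mutants, and the ATM alternatives gave none, since Foxtun4 was filtered out there.

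The share of TVCs with a Foxtun4 UMI moved without thinning to 93.9% and 92.5% in control and 50% in Foxtun4 CRISPR repeat 2, and at 2500 UMIs to 50% in control repeat 2.

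Direction turned in some alternatives. Leaving out a replicate gave Hand-r -0.0031 to 0.41, Tbx2/3 -1.44 to 0.62, Foxtun2 -0.33 to 1.23, Foxh.b -0.17 to 0.57, Foxm -0.25 to 0.71, Foxn1/4.b -0.22 to 0.42, Foxh.a -0.37 to 0.10, Col6a3 -5.98 to 3.90, KY.Chr7.1017 -1.17 to 5.599 and KY.Chr9.987 -2.60 to 0.16. Foxh.b was -0.0058 at 0.5% muscle and -0.0023 with no TVC gene minimum, where Foxh.a was 0.020. Matn4 was -0.26 with 1 barcode enough and -1.20 without TVCs over 30000 UMIs.

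Limits: the 6 Foxtun4 CRISPR cells of repeat 1 give 91315 UMIs, so 3 UMIs there are 32.9 CPM.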

Other observations

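In ATM cells, 7 of 5677 genes tested (0.123%) were called between Foxtun4 CRISPR and control in edgeR's quasi-likelihood test over 7 sums, and 0 in DESeq2, with 232 genes at an unadjusted p under 0.05 in edgeR. The Foxf CRISPR sum of repeat 1, with 4 ATM cells, was left out of that fit. The genes named here were chosen after their values were seen. Among the lower ones were Epi1-KY.Chr1.2380, an epidermis marker (log2 fold change -2.51, adjusted p 0.00289), KY.Chr7.1160 (-1.79), Tsta3-KY.Chr1.1897 (-1.28) and Plscr1-KY.Chr3.1281 (-1.01). The higher ones were Cryab-KY.Chr3.484, a match to a small heat shock protein (6.37), and KY.Chr14.1067 (3.77). Epi1 in ATM cells had 6 and 11 UMIs in Foxtun4 CRISPR and 50 and 182 in control. In TVCs it had 2 and 84 UMIs in Foxtun4 CRISPR and 7 and 128 in control.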
